A study of Homo sapiens with 19 samples.

Results

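The data describe what AKAP8 knockdown changed in epithelial and mesenchymal cells alike. All RNA-seq libraries of the series entered, which are 11 of its 19 samples, and 6 controls were compared with 5 knockdowns while cell state was held as a term of the fit. The other 8 samples are eCLIP and input libraries, of which only the deposited AKAP8 peak lists were used. The cells were HMLE/Twist-ER, a human mammary epithelial line immortalized with hTERT that carries the transcription factor Twist fused to an estrogen receptor. Untreated cells stood for the epithelial state (EPI), and cells kept in 20 nM tamoxifen until they looked mesenchymal stood for the mesenchymal state (MES). In either state, control cells stably expressed a non-specific shRNA and knockdown (KD) cells an shRNA against AKAP8, both delivered by lentivirus. There were 3 EPI control, 3 EPI KD, 3 MES control and 2 MES KD libraries, described in the study's methods as biological replicates. All groups thus share 1 cell line, the Twist fusion and a lentiviral shRNA. The labels do not name the AKAP8 shRNA of a library, so effects of AKAP8 loss and effects of that shRNA on other transcripts cannot be told apart.

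AKAP8 is a nuclear protein of the A kinase anchoring family with zinc fingers that binds RNA and associates with chromatin and the nuclear matrix. It takes part in chromosome condensation at mitosis and in alternative splicing. A cassette exon is kept in or skipped from the mRNA depending on proteins bound in and around it, and tissue-restricted factors such as the RBFOX, QKI, MBNL and ESRP families set many such choices when epithelial cells turn mesenchymal. Exon use is given as percent spliced in (PSI), the share of transcripts that include the exon, taken from reads across its splice junctions. Differences in PSI (∆PSI) are knockdown minus control, in percentage points.

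The lines below show 12 of the called exons in GRCh37 from 5′ to 3′ on the strand of the gene, with the exon in capitals and 20 intron bases on each side in lower case, and the coordinates are those of the exon. They were chosen after their values were seen, to show well measured exons of each direction and the shortest ones. RAI14, ADD3, TPM2, ATP5C1, APLP2 and DNM2 were included less after knockdown, as was VPS29, while FLNA, CLSTN1, UGGT1, CSNK1G3 and AP2M1 were included more.
RAI14, chr5:34813679-34813765, plus strand: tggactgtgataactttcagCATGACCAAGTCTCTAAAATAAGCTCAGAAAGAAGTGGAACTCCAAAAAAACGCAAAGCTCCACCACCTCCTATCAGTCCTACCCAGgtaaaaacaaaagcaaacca
ADD3, chr10:111892063-111892158, plus strand: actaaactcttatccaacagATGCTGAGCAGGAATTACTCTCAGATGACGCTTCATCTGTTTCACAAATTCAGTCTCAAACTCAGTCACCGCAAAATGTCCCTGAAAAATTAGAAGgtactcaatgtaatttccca
TPM2, chr9:35685061-35685136, minus strand: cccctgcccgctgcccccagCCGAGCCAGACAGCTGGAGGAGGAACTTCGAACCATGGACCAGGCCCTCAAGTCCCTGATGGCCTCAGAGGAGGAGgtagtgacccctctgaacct
ATP5C1, chr10:7848937-7848973, plus strand: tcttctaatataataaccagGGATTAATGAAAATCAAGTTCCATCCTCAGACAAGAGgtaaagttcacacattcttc
APLP2, chr11:129993507-129993674, plus strand: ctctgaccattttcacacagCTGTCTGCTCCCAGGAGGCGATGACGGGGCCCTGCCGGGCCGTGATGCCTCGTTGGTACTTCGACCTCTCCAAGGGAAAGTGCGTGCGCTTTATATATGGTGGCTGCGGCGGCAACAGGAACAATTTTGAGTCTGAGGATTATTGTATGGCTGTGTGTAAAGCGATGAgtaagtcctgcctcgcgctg
DNM2, chr19:10919245-10919256, plus strand: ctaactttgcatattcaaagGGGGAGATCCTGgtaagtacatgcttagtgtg
VPS29, chr12:110937340-110937351, minus strand: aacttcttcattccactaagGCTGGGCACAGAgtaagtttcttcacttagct
FLNA, chrX:153585619-153585642, minus strand: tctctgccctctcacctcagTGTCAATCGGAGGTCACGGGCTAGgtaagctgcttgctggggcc
CLSTN1, chr1:9797556-9797612, minus strand: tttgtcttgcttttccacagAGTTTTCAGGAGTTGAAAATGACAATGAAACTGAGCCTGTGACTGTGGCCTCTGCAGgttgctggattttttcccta
UGGT1, chr2:128913966-128913989, plus strand: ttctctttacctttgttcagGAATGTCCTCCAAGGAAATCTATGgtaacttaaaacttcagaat
CSNK1G3, chr5:122941033-122941056, plus strand: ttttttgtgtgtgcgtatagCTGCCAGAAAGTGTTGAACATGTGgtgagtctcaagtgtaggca
AP2M1, chr3:183898433-183898438, plus strand: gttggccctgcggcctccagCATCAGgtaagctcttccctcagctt

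AKAP8 itself was reduced to a like degree in both states. Gene levels were read as the scaled sum of junction reads over a gene's skipped exon events, since no gene counts were used. A read counts in every event that uses it. AKAP8 had 244, 309.9 and 245 scaled reads in the EPI controls and 121, 98.8 and 125 in the EPI KD libraries. In MES it had 382, 196 and 248 scaled reads in the controls and 108 and 122 in the KD libraries. Every KD library was below every control library, at 37.1% to 46.9% of the control mean of its state. The log2 fold change over both states was -1.20 (SE 0.18; limma adjusted p = 0.00207; exact permutation p = 0.01 within states, the smallest that the 200 arrangements allow). It was -1.20 in EPI and -1.20 in MES, and the difference between the states did not pass the test (adjusted p = 0.996). AKAP8L, the closest relative, had a log2 fold change of 0.17 (SE 0.14; adjusted p = 0.537).

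Junction reads summed over the skipped exon events shared by all tables came to 21198882 to 28261544 per library. A read is counted in every event that uses it, so these sums exceed the number of separate reads. Markers separated the states in the controls. CDH1, the epithelial cadherin, averaged 1533 scaled reads in EPI and 80.9 in MES, and VIM, an intermediate filament of mesenchymal cells, 31528 and 106481. CDH11, a mesenchymal cadherin, was near absent from EPI controls at 5.73 and at 908 in MES. Of 5 immune markers only CD68 was measured, and none of 4 endothelial markers had a value.

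Knockdown changed 52 skipped exon events in the joint fit, out of 30134 tested. A change was called at a Benjamini-Hochberg adjusted p under 0.05 in a limma-moderated quasi-binomial test and a mean ∆PSI of at least 10 points, the mean being that of the ∆PSI within EPI and within MES. The called events are 0.173% of those tested, with 21 exons toward inclusion (0.0697%) and 31 toward skipping (0.103%), in 48 genes and at 51 distinct exons. Among them, 51 of 52 moved the same way in both states, 48 by at least 5 points in each and 23 by at least 10 points in each, against a shared direction in 50.7% of all tested events. The call on the mean of both states favours such sharing, so these counts describe the called events and are no independent support. The median size was 14.5 points, which the threshold of 10 points raises, against 0.562 over all events tested. In 36 of the 52 the KD libraries lay outside the range of the controls in both states and on the same side, which 370 of all 30134 tested events did (1.23%). Such a separation fixes the p of the exact permutation test within states at its smallest value, 0.01. For these 36 events that p thus adds no support, and the calls used the same PSI values.

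The calls depended on pooling the states and on the error model. Within EPI alone 29 skipped exon events passed the same thresholds (0.0962%) and within MES alone 26 (0.0863%), and 18 of the 52 passed in neither state alone. With limma on the logit of PSI in place of the quasi-binomial test, 0 of the 52 kept an adjusted p under 0.05 (the lowest was 0.468), although 232 events had an unadjusted p under 0.05 with a ∆PSI of at least 10 points, against 327 in the quasi-binomial test. Leaving out each library in turn, 24 events in 22 genes kept an adjusted p under 0.05 every time and 28 lost it at least once.

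Among the exons that fell, RAI14 had the largest mean change. It encodes ankycorbin, an actin-associated ankyrin repeat protein, and its 87 nt exon had a PSI of 81.0%, 90.8% and 92.8% in EPI controls and 69.9%, 40.8% and 66.0% in EPI KD. In MES the values were 49.9%, 48.9% and 46.1% in controls and 26.4% and 22.0% in KD. KD libraries lay below the controls in both states, by 29.3 points in EPI and 24.1 in MES (mean ∆PSI -26.7, SE 5.07; adjusted p = 1.60e-08). ADD3 encodes gamma-adducin of the membrane skeleton. Its 96 nt exon went from 62.3%, 69.4% and 64.3% in EPI controls to 37.2%, 29.6% and 32.7% in EPI KD, and from 16.7%, 21.0% and 13.1% in MES controls to 7.19% and 1.29% in MES KD (mean ∆PSI -22.4, SE 2.41; adjusted p = 5.53e-08). The groups did not overlap, and the smaller difference of 12.7 points in MES started from a control level that was itself 48.4 points lower than in EPI.

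TPM2, the beta chain of tropomyosin that lines actin filaments, was among the best measured of the called events, with 3205 junction reads per library. The PSI of its 76 nt exon was 69.9%, 72.4% and 74.7% in EPI controls, 48.8%, 51.3% and 55.7% in EPI KD, 67.1%, 67.8% and 59.9% in MES controls and 47.8% and 50.6% in MES KD. The drop was thus of like size, 20.4 points in EPI and 15.7 in MES (SE of the mean 1.89; adjusted p = 7.22e-25), and KD libraries of either state lay at 47.8% to 55.7%. An event of the same exon against other neighbouring exons, with 5160 reads per library, was tested and not called. EHBP1, which couples endocytic membranes to actin, fell by 11.3 points in EPI and 33.0 in MES, where its 108 nt exon was at 67.4%, 66.5% and 80.6% in controls and 40.2% and 36.8% in KD (adjusted p = 1.16e-07). PARD3, a scaffold of the cell polarity complex, fell by 9.25 and 21.5 points. Its 45 nt exon was close to full inclusion in EPI controls, at 98.5%, 99.2% and 95.9%, and at 73.0% and 69.4% in MES KD (adjusted p = 1.13e-08). ERBB2IP, the basolateral scaffold erbin, fell by 15.4 points in EPI and 12.8 in MES (adjusted p = 2.44e-04), and ARAP1, an Arf GTPase-activating protein, by 13.5 and 20.7 for an exon of 33 nt (adjusted p = 8.03e-04).

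CD44, the hyaluronan receptor whose variable exons are a classic readout of the epithelial to mesenchymal transition (EMT), had 3 called events at 2 exons, all toward skipping. All tables shared 55 skipped exon events of CD44. Other events of these 2 exons, with up to 3364 and 4211 reads per library, were tested and not called. The exon at chr11:35219668-35219793 of 126 nt went from 86.1%, 82.4% and 82.3% in EPI controls to 80.9%, 68.1% and 71.1% in EPI KD and from 75.2%, 77.2% and 76.5% in MES controls to 67.7% and 63.6% in MES KD (mean ∆PSI -10.5, SE 2.30; adjusted p = 4.11e-07). For the exon at chr11:35227659-35227790 of 132 nt, 1 event with 2479.7 reads per library fell by 7.40 points in EPI and 14.9 in MES (adjusted p = 3.35e-07). KD libraries lay below the controls of their state for both. The other called event of that exon is measured against other neighbouring exons and had only 33.9 reads per library. Its PSI was 75.0%, 85.2% and 35.5% in EPI controls and 50%, 38.5% and 48.1% in EPI KD, so that the EPI groups overlapped, and its call was lost without EPI control 1 or 2, MES control 1 or 2 or MES KD 1 or 2, with an adjusted p of up to 0.353.

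The lowest p of all events was that of ATP5C1, the gamma subunit of mitochondrial ATP synthase. Its 37 nt exon had a PSI of 95.1%, 95.1% and 95.1% in EPI controls and of 87.5%, 78.7% and 85.4% in EPI KD. In MES it was at 79.5%, 75.0% and 75.4% in controls and 43.8% and 46.6% in KD. The drop of 31.4 points in MES stood against 11.3 points in EPI (mean ∆PSI -21.3, SE 1.67; adjusted p = 7.14e-31), and the test of the difference between the states on the logit scale did not pass (adjusted p = 0.971). APLP2, a relative of the amyloid precursor protein, went from 66.2%, 62.7% and 62.4% to 44.9%, 52.8% and 50.9% in EPI and from 26.5%, 26.1% and 27.4% to 14.1% and 16.9% in MES for an exon of 168 nt, at 3123 reads per library (adjusted p = 9.76e-14). ADGRG6, an adhesion G protein-coupled receptor, was at 86.9%, 81.9% and 75.9% in MES controls and 49.97% and 48.2% in MES KD (∆PSI -32.5), with a smaller ∆PSI of -8.14 in EPI (adjusted p = 2.54e-05). DNM2, the membrane-severing GTPase dynamin 2, fell by 7.42 points in EPI and 22.6 in MES at an exon of only 12 nt (adjusted p = 3.70e-07). In EPI, CA12, a carbonic anhydrase of the cell surface, was at 58.2%, 68.4% and 62.8% in controls and 48.4%, 41.9% and 49.8% in KD (adjusted p = 3.86e-05), while its MES libraries overlapped. PLD3, of the phospholipase D family, had 2 overlapping exons in a UTR that share reads and fell by 20.2 and 19.9 points in MES, while its EPI groups overlapped.

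**Figure D1:**
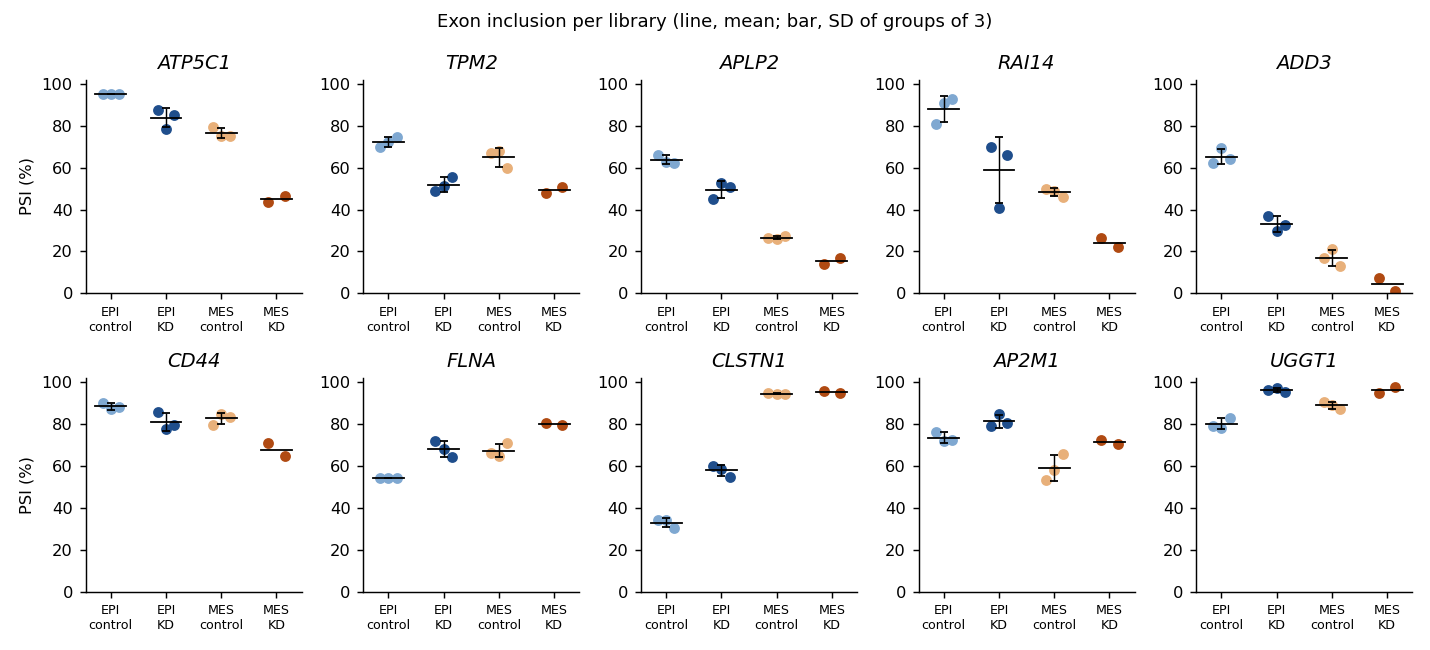
PSI in percent of 10 exons in each of the 11 libraries, with the group mean as a line and the SD of groups of 3 as a bar. TPM2 and FLNA moved by a similar number of points in EPI and MES, whereas CLSTN1 moved in EPI from 33.0% to 57.9% and stood at 94.5% in MES controls.

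Toward inclusion, FLNA rose by a like amount in both states. It encodes filamin A, which crosslinks actin, and its 24 nt exon had a PSI of 54.5%, 54.3% and 54.3% in EPI controls, 71.8%, 68.3% and 64.4% in EPI KD, 66.3%, 64.8% and 71.0% in MES controls and 80.7% and 79.6% in MES KD. The rise was 13.8 points in EPI and 12.8 in MES (SE of the mean 1.43; adjusted p = 1.34e-16; 3287 reads per library). The groups did not overlap within a state. AP2M1 encodes the mu subunit of the AP-2 clathrin adaptor, and its exon of only 6 nt rose from 76.4%, 71.7% and 72.2% to 78.9%, 85.0% and 80.4% in EPI and from 53.3%, 57.9% and 65.6% to 72.2% and 70.3% in MES (mean ∆PSI 10.2, SE 2.21; adjusted p = 1.60e-08). UGGT1, a folding sensor of the endoplasmic reticulum, reached 96.1%, 97.5% and 95.2% in EPI KD and 94.8% and 98.0% in MES KD from 79.1%, 78.3% and 83.2% and 90.7%, 89.1% and 87.3% in the controls (adjusted p = 1.22e-06). FAM126A, a subunit of a phosphatidylinositol 4-kinase complex, rose by 21.2 points in EPI and 9.36 in MES (adjusted p = 7.75e-06).

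In several exons the rise was larger in EPI, but none of those given here passed the test of the difference between the states. CLSTN1 encodes calsyntenin 1, a cadherin-related adaptor for kinesin transport. Its 57 nt exon was at 34.4%, 34.3% and 30.4% in EPI controls and 60.2%, 58.7% and 54.8% in EPI KD (∆PSI 24.9), but at 94.7%, 94.2% and 94.5% in MES controls and 96.1% and 94.8% in MES KD (∆PSI 0.964). Its call in the joint fit (adjusted p = 2.81e-13) thus rested on EPI, and the test of the difference between the states gave an adjusted p of 0.663. SLMAP, a tail-anchored membrane protein, had a ∆PSI of 26.5 in EPI and 4.75 in MES, with MES controls at 93.0%, 89.3% and 89.99% (adjusted p = 1.09e-06; interaction adjusted p = 0.876). MYO18A, an unconventional myosin, had 21.9 in EPI and 3.96 in MES, and its MES groups overlapped (interaction adjusted p = 0.676). Its call was lost without EPI KD library 2 (adjusted p = 0.0543). The MES difference was the larger for COL6A3, a chain of the matrix collagen VI, whose 600 nt exon went from 51.0%, 46.6% and 50.4% to 75.8% and 80.7% in MES. In EPI its controls were at 31.0%, 23.1% and 17.0% and KD at 63.6%, 20.5% and 21.7%, so the mean difference of 11.6 points rested on a single KD library and the groups overlapped (joint adjusted p = 2.81e-13). Without EPI KD library 1 the mean over both states was 13.2 points in place of 20.2.

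The largest mean difference was that of FNBP1, an F-BAR protein that bends membranes, but on few reads. Its 96 nt exon had 28.7 reads per library and PSI of 60.5%, 45.6% and 61.4% in EPI controls and 100%, 94.1% and 100% in EPI KD, against 76.1%, 100% and 76.1% and 100% and 100% in MES, where the groups overlapped (mean ∆PSI 29.1, SE 4.83). The call was lost without EPI KD library 1 (adjusted p = 0.0542), as was that of a longer form of the exon that shares its reads (adjusted p = 0.0811). A further 9 genes among the 25 with the largest changes had an exon that rose but lost its call when a library was left out. MICALL2, a Rab13 effector at cell junctions, rose by 27.9 points in EPI and 16.2 in MES and was lost without EPI control 1 or 3 or EPI KD 1, 2 or 3, with an adjusted p of up to 0.178. TTC8, a subunit of the BBSome at cilia, rose by 21.5 points in EPI and 11.8 in MES and was lost without EPI control 1 or 2, EPI KD 1 or 3, MES control 2 or MES KD 1, with an adjusted p of up to 0.186. NIN, the centrosomal protein ninein, rose by 17.0 points in EPI and 16.1 in MES and was lost without EPI control 1, EPI KD 3 or MES KD 1, with an adjusted p of up to 0.196. NSRP1, a splicing regulator of nuclear speckles, rose by 23.2 points in EPI and 9.40 in MES and was lost without EPI control 1, EPI KD 1, MES control 3 or MES KD 1, with an adjusted p of up to 0.278. CASK, a membrane scaffold of the MAGUK family, rose by 24.2 points in EPI and 8.44 in MES and was lost without EPI control 3 or EPI KD 1, with an adjusted p of up to 0.104. SMC5, a subunit of the SMC5/6 complex, rose by 21.2 points in EPI and 10.2 in MES and was lost without EPI KD 1, with an adjusted p of 0.230. FMNL3, a formin that elongates actin, rose by 11.7 points in EPI and 25.5 in MES and was lost without MES control 2 or MES KD 1 or 2, with an adjusted p of up to 0.126. CSNK1G3, a casein kinase, rose by 10.4 points in EPI and 19.8 in MES and was lost without MES KD 1, with an adjusted p of 0.0565. PGAP1, which remodels GPI anchors, rose by 22.9 points in EPI and 7.0 in MES and was lost without EPI control 1 or 2, EPI KD 1, 2 or 3, MES control 2 or MES KD 2, with an adjusted p of up to 0.163.

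SEPT2, a septin, and REPS1, an endocytic adaptor, were the exons among the 25 largest that fell with such support only. SEPT2 had 30.9 reads per library, and its PSI was 56.1%, 17.2% and 42.9% in EPI controls and 4.92%, 9.09% and 36.0% in EPI KD, so the groups overlapped (mean ∆PSI -20.4, SE 8.82; lost without EPI control 1 or 3, EPI KD 1 or 2, MES control 2 or 3 or MES KD 1 or 2, with an adjusted p of up to 0.283). The exon of REPS1 fell by 13.4 points in EPI and 16.5 in MES without overlap (lost without EPI control 1, 2 or 3, EPI KD 1 or 3, MES control 2 or MES KD 1 or 2, with an adjusted p of up to 0.172). Among smaller changes, DNM1L, the GTPase of mitochondrial fission, lost its call whichever library was left out, with an adjusted p of up to 0.214, although its groups did not overlap in either state. At the size threshold itself, TPD52L2 with 10.2 and AP2M1 with 10.2 points were the smallest changes inside, and PLD3 with 9.94 and COL4A6 with 9.77 points the largest outside.

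**Figure D2:**
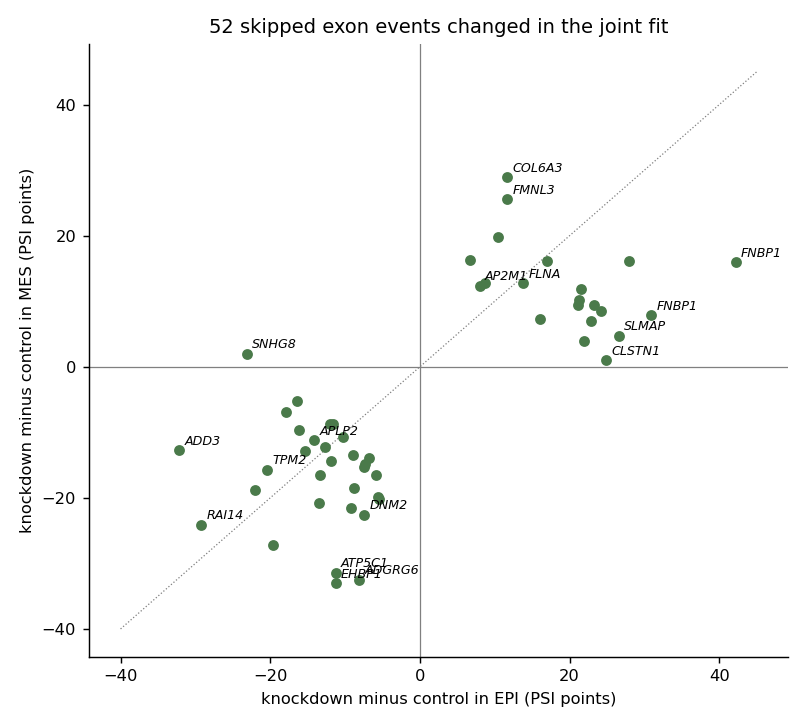
The ∆PSI in EPI (x axis, points) and in MES (y axis, points) of the 52 skipped exon events called in the joint fit, with the line of equal change dotted. All but SNHG8 lie in the quadrants of equal sign, with 28 events larger in EPI and 24 larger in MES.

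The events called within a single state moved alike in the other. No library serves both the EPI and the MES comparison, so the values of either state can be set beside those of the other. Of the 29 events called in EPI, 26 had the same direction in MES (89.7%, exact Clopper-Pearson interval 72.6% to 97.8%), and of the 26 called in MES, 25 had the same direction in EPI (96.2%, 80.4% to 99.9%). The intervals cover counting error only, and several events share reads. Among all events with a ∆PSI of at least 10 points in EPI, called or not, the share was 59.5%. Sizes were smaller in the state that was not used for the call. Events called in EPI had a median size of 16.4 points there and 8.68 in MES, and events called in MES 18.6 points there and 7.72 in EPI. Pearson's r between the ∆PSI of the states was 0.76 over the 29 events called in EPI, 0.50 over the 26 called in MES and 0.11 over all 30134, which is a description across events that are not independent. Both states called 6 events.

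A difference between the states passed the interaction test in 3 skipped exon events (0.00996%), of which only SNHG8, a snoRNA host gene, was among the 52. Its 194 nt noncoding exon went from 76.7%, 69.6% and 63.2% in EPI controls to 43.9%, 54.5% and 41.6% in EPI KD, and was at 32.4%, 32.0% and 37.4% in MES controls and 32.6% and 39.3% in MES KD (interaction adjusted p = 0.00213). The MES groups overlapped, and the joint fit called the event on the EPI libraries, a call that was lost without EPI control 1, EPI KD 1 or 2 or MES control 3 (adjusted p of up to 0.493). In 5 of the 52 events the unadjusted interaction p was under 0.05, and 440 of all events had such a p with a difference of at least 10 points.

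Most of these exons also differ between the states themselves. In 38 of the 52 events the MES and EPI controls were at least 10 points apart, and the median absolute difference was 21.2 points against 0.868 over all tested events. Of the 25451 exons tested, only 4079 were variable in the controls, as defined below, so 0.868 is no matched background for the called events. The share of variable exons with controls at least 10 points apart was not tested. Whether the 38 exceed that share is therefore not known. EMT and knockdown values share the control libraries, so they are given side by side only. ADD3 stood 48.4 points lower in MES controls than in EPI controls and had a knockdown ∆PSI of -32.2 in EPI. For CLSTN1 the control difference was 61.4 points and the ∆PSI in EPI 24.9. TPM2 and PARD3, with control differences of -7.41 and -5.18 points, are exons that both states used to a similar degree. In a list of 22 genes known for EMT-regulated exons, 229 events were tested and 4 were called, the 3 of CD44 and that of CLSTN1 (1.75%, against 0.173% of all events). They come from 2 genes, and the CD44 events lie at 2 exons. The list was written with earlier results of these data known, so the 1.75% is no independent support. A further 7 events of the list passed the adjusted p but not the size. They include MAP3K7, a kinase of TGF-beta signalling, with a mean ∆PSI of -8.18 points.

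Other event types gave few calls. Of 4883 pairs of mutually exclusive exons, 5 were called (0.102%), each with the same direction and no overlap in both states. For TPM2 this is the same exon as above seen against its partner, and its share fell from 82.5%, 84.8% and 84.2% to 66.6%, 67.5% and 70.3% in EPI and from 81.3%, 80.7% and 74.1% to 67.5% and 67.8% in MES (adjusted p = 0.00923; 6867 reads per library). TPD52L2, of the D52 family of trafficking proteins, rose by 13.2 points in EPI and 8.36 in MES (adjusted p = 0.00124). DLG1, a polarity scaffold, rose by 11.2 and 9.16 (adjusted p = 0.0179), TTC8 by 15.8 and 11.1 (adjusted p = 0.0370), and the membrane protein TMEM234 by 28.4 and 11.8 on 41.6 reads per library (adjusted p = 0.0318). Leaving out a library left 1 to 5 of these calls, the fewest without MES KD library 1. An alternative 5′ splice site was called only in REPS1 (0.0705% of 1418), at -15.1 and -16.8 points (adjusted p = 0.0255), which shares reads with its skipped exon, and 0 to 3 such sites were called when a library was left out. No retained intron of 1671 (0%) and no alternative 3′ splice site of 2247 (0%) was called in the quasi-binomial test, while 47 and 25 of them reached an unadjusted p under 0.05 along with a ∆PSI of at least 10 points. Limma on the logit of PSI also called 0 of either, and with the place of a library in its list as a block the numbers were 2 and 5.

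The called exons had a few things in common that the calls did not use. Of the 51 exons, 41 had a length that is a multiple of 3 (80.4%), against 44.4% of the 25451 exons tested. Including or skipping such an exon keeps the reading frame where the exon is coding. Of the 4079 variable exons, those with a mean control PSI between 10% and 90%, 49.3% had a length that is a multiple of 3. Microexons of at most 27 nt were 6 of 51 (11.8%), against 1.17% of all and 2.28% of the variable exons. They are those of AP2M1, FLNA, UGGT1 and CSNK1G3, which rose, and of VPS29, a retromer subunit, and DNM2, which fell. The call of VPS29 was lost without EPI control 1 or 3 or EPI KD 2 and that of CSNK1G3 without MES KD 1 (adjusted p of up to 0.0637 and 0.0565). In the Gencode annotation 43 of the 51 exons are coding over their whole length in at least 1 transcript, 5 are partly coding, 2 lie in a UTR and 1 is noncoding. All 51 were annotated with these ends and had AG before the exon, and 50 had GT after it.

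The intron sequence next to the exons was searched for 6 words on the strand of the gene, within 250 bases of the exon. TGCATG, the letters bound by the RBFOX proteins, was found downstream of 7 of the 21 exons that rose (33.3%) and upstream of 10 of the 30 that fell (33.3%). On the opposite sides it was upstream of 2 that rose (9.52%), in CSNK1G3 and NIN. It was downstream of 5 that fell (16.7%), in CA12, DEPDC1, EHBP1, NUMA1 and REPS1. The stretches on these opposite sides are not shown. Among all tested exons the shares were 7.01% upstream and 7.32% downstream, and among the variable exons 8.58% and 9.07%. FNBP1 and PLD3 count 2 times each in these numbers, since both forms of their exon share the intron. The lines below give the word in capitals with up to 20 bases on each side in GRCh37, the coordinates being those of the stretch shown, first for 5 exons that rose, downstream of the exon, and then for 6 that fell, upstream of it.
FNBP1, chr9:132686054-132686099, minus strand: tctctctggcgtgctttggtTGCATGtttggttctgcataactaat
SLMAP, chr3:57911712-57911757, plus strand: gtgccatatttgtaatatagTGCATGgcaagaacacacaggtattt
FAM126A, chr7:22986520-22986565, minus strand: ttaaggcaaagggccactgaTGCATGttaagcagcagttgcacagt
NSRP1, chr17:28445196-28445241, plus strand: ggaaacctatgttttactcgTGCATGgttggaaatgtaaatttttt
PGAP1, chr2:197756950-197756995, minus strand: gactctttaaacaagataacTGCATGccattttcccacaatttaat
ADD3, chr10:111892010-111892055, plus strand: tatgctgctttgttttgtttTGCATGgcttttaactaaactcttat
CD44, chr11:35227626-35227658, plus strand: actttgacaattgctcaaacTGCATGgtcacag
DNM1L, chr12:32891151-32891196, plus strand: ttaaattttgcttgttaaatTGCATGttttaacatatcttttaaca
PARD3, chr10:34625261-34625306, minus strand: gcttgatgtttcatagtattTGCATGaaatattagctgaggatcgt
ATP5C1, chr10:7848783-7848828, plus strand: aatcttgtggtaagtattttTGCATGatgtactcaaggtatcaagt
RAI14, chr5:34813492-34813537, plus strand: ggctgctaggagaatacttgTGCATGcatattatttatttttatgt

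The word lay 43, 70, 25, 24 and 94 bases after the exon in FNBP1, SLMAP, FAM126A, NSRP1 and PGAP1. It lay 27, 7, 21, 109, 128 and 161 bases before it in ADD3, CD44, DNM1L, PARD3, ATP5C1 and RAI14. FAM126A held 3 copies downstream, and PARD3 and ATP5C1 held 2 upstream. The calls of FNBP1, NSRP1, PGAP1 and DNM1L were, as given above, lost when certain libraries were left out. ACTAAC, the letters bound by QKI, was found upstream of 5 and downstream of 4 of the 30 exons that fell (16.7% and 13.3%), and upstream of 0 and downstream of 1 of the 21 that rose (0% and 4.76%), against 3.48% and 3.43% of the variable exons. For TGCTT, part of the MBNL motif, the shares of the 51 were 58.8% upstream and 41.2% downstream, and those of the variable exons 37.2% and 34.9%. GGTGGT, a word rich in G and T, was at 5.88% and 13.7% against 6.86% and 7.75%. TGGGT was at 17.6% and 17.6% against 26.1% and 28.6%, and any run of at least 3 G bases between A or T at 60.8% and 60.8% against 76.1% and 79.6%. These shares carry no test, a match is not a bound site, and where an intron is shorter than 250 bases the window runs into the next exon.

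The levels of known splicing regulators were read beside these exons, and those given here did not pass the test. RBFOX2 had a log2 fold change of 0.13 (SE 0.10; limma adjusted p = 0.450), QKI 0.34 (SE 0.14; adjusted p = 0.178) and MBNL1 -0.44 (SE 0.19; adjusted p = 0.194). For ESRP1, an epithelial splicing factor, the value was -0.45 (SE 0.22; adjusted p = 0.258), and for HNRNPM, a splicing repressor, 0.12 (SE 0.12; adjusted p = 0.621). In EPI and MES the log2 fold changes were -0.18 and -0.77 for MBNL1, 0.55 and 0.08 for QKI and -0.05 and -0.95 for ESRP1. For RBFOX2 they were 0.13 and 0.14, and for HNRNPM 0.22 and 0.00. MBNL1 and ESRP1 in MES and QKI in EPI had no overlap of KD and control libraries. No within-state limma adjusted p of these genes was under 0.05. Of 18 measured regulators of EMT splicing 0 passed an adjusted p of 0.05 in either direction, with 2 higher and 1 lower at an unadjusted p under 0.05. Over all genes 5.95% passed the adjusted and 21.6% the unadjusted threshold, so a 0 in lists of this size is near the background. The same 0 held for 6 SR proteins (2 lower unadjusted), 16 hnRNPs (1 lower) and 8 CLK, TRA2 and SRPK genes (2 lower).

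AKAP8 binding was seen near few of these exons. An eCLIP peak on the gene's strand, with a log2 enrichment over input of at least 2, lay within 500 nt of 4 of the 51 exons (7.84%), in either state, and of 2.20% of all and 3.11% of the variable exons. Over the whole event, neighbouring exons included, a peak was found for 10 of 51 (19.6%), 8.0% of all and 11.1% of the variable exons. The called exons had a median of 335 junction reads per library against 254 over all and 106 over the variable exons and the part of read depth in these shares was not tested. The 4 exons are those of CLSTN1, MICALL2, SEPT2 and TPD52L2. Of these, MICALL2 and TPD52L2 had peaks past the thresholds in both states and CLSTN1 and SEPT2 in EPI only. A peak missing from a list is not a lack of binding. For CLSTN1 the study reports AKAP8 binding in both states, with a greater intensity in EPI. The peak lists merge 2 replicates per state, so a peak has no spread.

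The lines below show an intron peak of 3 of these genes in GRCh37, on the gene's strand, with runs of at least 3 G bases in capitals. The CLSTN1 peak lay 163 bases upstream of the exon, with a log2 of IP over input of 2.26. That of TPD52L2 lay 433 bases downstream, with 3.16 in EPI and 3.26 for an overlapping peak in MES. For MICALL2 the peak was 181 bases downstream, with 5.15 in EPI.
CLSTN1, EPI, chr1:9797775-9797856, minus strand: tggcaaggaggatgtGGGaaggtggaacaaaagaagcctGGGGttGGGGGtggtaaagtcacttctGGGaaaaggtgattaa
TPD52L2, EPI, chr20:62507661-62507722, plus strand: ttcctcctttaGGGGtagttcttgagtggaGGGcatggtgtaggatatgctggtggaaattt
MICALL2, EPI, chr7:1473616-1473665, minus strand: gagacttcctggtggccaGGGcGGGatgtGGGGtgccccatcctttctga

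Gene levels were tested in the same way. Of 9014 genes with a skipped exon event, 110 were changed in the joint fit (1.22%) at a limma adjusted p under 0.05 and a log2 fold change over 1 in size on the log2(value + 1) scale, 47 higher and 63 lower. Within EPI alone 17 genes passed the same thresholds (0.189%) and within MES alone 206 (2.29%), with 13 passing in both. All 110 had the same sign in EPI and MES, against 65.4% of all genes, but a call on the mean over both states favours a shared sign, so this is no independent support. When libraries were scaled by their total junction reads, 115 genes were changed, 36 higher and 79 lower. Without the fold change threshold, 277 genes were higher (3.07%) and 259 lower (2.87%). Among the 10 largest falls was AREL1, an E3 ligase that counters apoptosis, with 1395, 1760.2 and 1402 scaled reads in EPI controls, 362, 303 and 453 in EPI KD, 1678, 1902 and 1443 in MES controls and 396 and 542 in MES KD (log2 fold change -1.95, SE 0.14; adjusted p = 1.63e-05). The KD libraries lay well below the controls in both states.

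Others of the 10 largest falls are given by their fold change. PTP4A3, a phosphatase, had a log2 fold change of -2.22, GPSM3, a G protein signalling modulator, -2.15, FABP3, a fatty acid-binding protein, -2.10, and TREM2, a lipid receptor, -2.003. LOXL1-AS1, an antisense RNA, had -1.95, and ETV7, an ETS factor, -1.94. ARHGAP19-SLIT1, a readthrough gene whose reads ARHGAP19 may share, fell by 1.78 on the log2 scale (adjusted p = 9.56e-05). By p, AKAP8 was number 23 among the genes that fell.

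Among the rises, HSD17B10, a mitochondrial dehydrogenase, went from 288, 375 and 251 to 1007, 1497 and 899 in EPI and from 466, 477 and 272 to 1579 and 1157 in MES (log2 fold change 1.83, SE 0.19; adjusted p = 1.84e-04). CRYAB, a small heat shock protein, had 345, 473 and 428 in EPI controls and 2355, 3328 and 1012 in EPI KD, against 212, 292 and 306 and 800.2 and 1012 in MES (log2 fold change 2.04; adjusted p = 7.09e-04). LOX, which crosslinks collagen, had 268, 376 and 470.4 and 1583, 1950.2 and 1387 in EPI, and 4281, 5187 and 2558 and 8515 and 7724 in MES (log2 fold change 1.68; adjusted p = 0.00147). These groups did not overlap in either state. The other 7 of the 10 largest rises were the transporters SLC16A14 (2.24), SLC43A1 (1.96), ABCG1 (1.95) and SLCO2A1 (1.66), with GPNMB (1.87), FAM129A (1.80) and MED19 (1.51). SLC16A14 and SLC43A1 had fewer than 10 scaled reads in the EPI controls, so their fold changes rest on few reads. Other genes that rose, named after their values were seen, were ASNS (1.29), which makes asparagine, CTH (1.26), which makes cysteine, and the amino acid transporters SLC7A11 (1.20), SLC1A4 (1.37) and SLC6A9 (1.44).

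**Figure D3:**
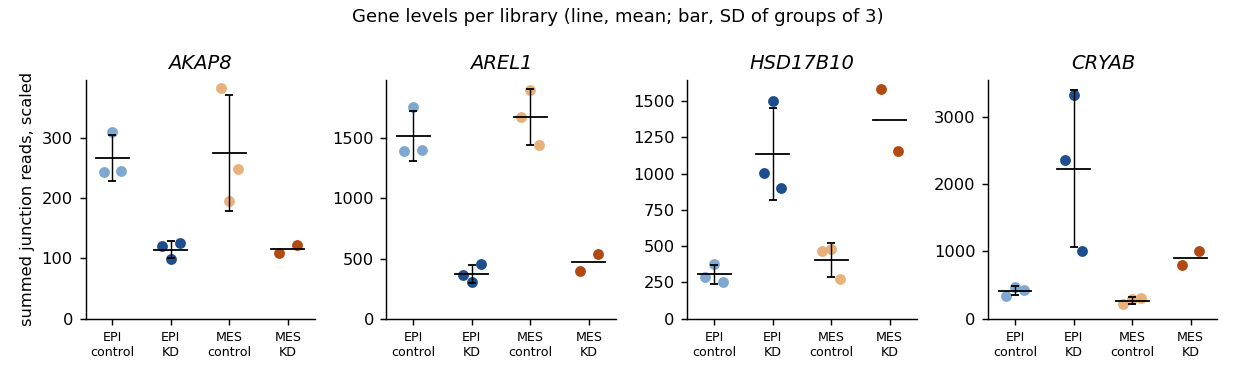
Scaled junction reads of AKAP8, AREL1, HSD17B10 and CRYAB in each of the 11 libraries, with the group mean as a line and the SD of groups of 3 as a bar. KD libraries are below all controls of their state for AKAP8 and AREL1 and above them for HSD17B10 and CRYAB.

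**Figure D4:**
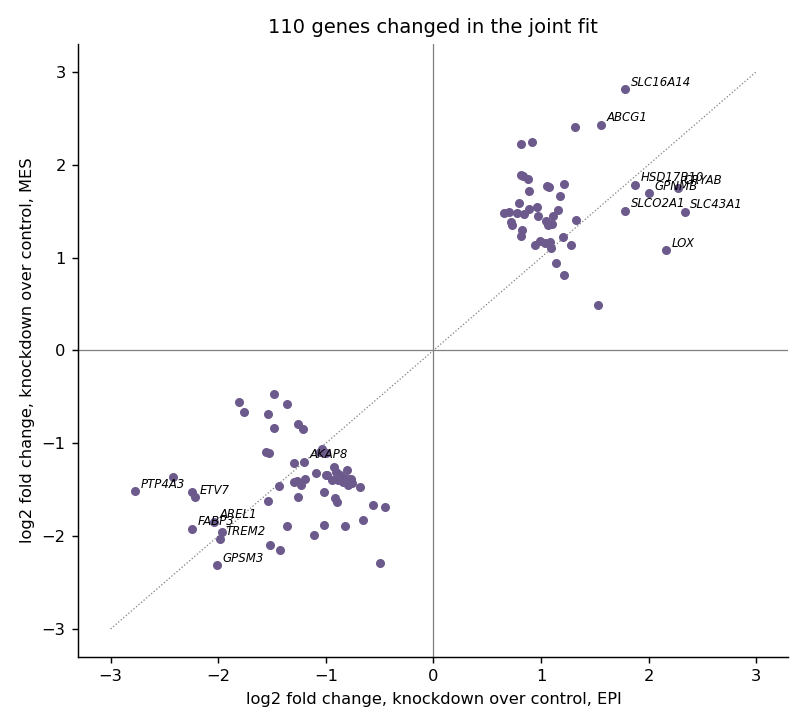
Log2 fold change of knockdown over control in EPI (x axis) and MES (y axis) for the 110 genes called in the joint fit, with the line of equal change dotted. All points lie in the quadrants of equal sign, and AKAP8 lies close to the line at -1.20 in both states.

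In gene lists, few members passed an adjusted p of 0.05, read against the 3.07% of all genes that were higher and the 2.87% that were lower. Of 14 measured p53 target genes, 4 were lower, namely RRM2B, a ribonucleotide reductase subunit (-1.05), SESN1 (-0.70), TIGAR (-0.68) and MDM2, the p53 ligase (-0.53). SESN2, a stress sensor, was higher (1.05), and the median of the list was -0.23 against -0.01 over all genes. The interferon list had 2 of 9 lower, IFI44 (-1.05) and EIF2AK2 (-0.45), with a median of -0.16. Of 13 mesenchymal genes 3 were higher, LOX (1.68), the protease MMP2 (1.18) and the matrix protein POSTN (1.07), with a list median of 0.31, whereas VIM (0.17, adjusted p = 0.596) and FN1 (0.32, adjusted p = 0.476) did not pass. Of 10 epithelial genes 0 passed (1 lower at an unadjusted p under 0.05), with a median of -0.09. Their summed level was 122816 in EPI controls and 101267 in EPI KD, and 16569 and 10956 in MES. That of the mesenchymal genes was 1135690 and 1281900 in EPI, and 4050670 and 5391920 in MES, most of it from FN1. Genes with more skipped exon events weigh more in such sums. The part of these marker levels in the exon changes was not tested.

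For mitosis and chromosome condensation, a known site of AKAP8 function, 1 of 26 genes was higher, the kinase PLK1 (0.50; adjusted p = 0.0380), and the list median was -0.03. Among 10 A kinase anchoring genes, AKAP10 was lower beside AKAP8 (-0.62; adjusted p = 0.0111). In the list of EMT-spliced genes, CLSTN1 was higher (0.53) and EPB41, a membrane skeleton protein, lower (-0.55). The levels of the 48 genes with a called exon are set beside those of all genes. Of the 48, 0 were among the 110, a call that 1.22% of all genes had, and 4 passed an adjusted p of 0.05 at a smaller size (8.33% against 5.95% of all genes), with CLSTN1 higher and ADD3 (-0.81), CHTF8 (-0.56) and ZDHHC7 (-0.65) lower. A total of 10 of the 48 had an unadjusted p under 0.05 (20.8% against 21.6% of all genes). Their median absolute log2 fold change was 0.20, as over all genes (0.20). A gene's value sums reads of its own skipped exon events and so moves with splicing to some degree.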

How the data were processed

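Stranded paired-end poly(A) RNA-seq libraries of HMLE/Twist-ER cells gave the splicing tables, and eCLIP with inputs gave the peak lists. Per the labels and the study's methods, the authors aligned reads to GRCh37 and ran rMATS. The submitters' processing notes name STAR 2.6.1a and featureCounts 1.5.0. The deposited rMATS tables list inclusion and skipping junction counts per library with the lengths of both forms, as comma-separated lists. In the deposited peak lists, each peak that the authors merged over replicates has its enrichment as a log2 ratio to the input and its significance as -log10, and peaks with a log2 of at least 2 and a -log10 of at least 3 were kept. The p-values, FDR and differences between groups that the authors put in the tables, and 30 columns of PSI values, were not used.

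Events with the same coordinates in the EPI, MES and EMT tables were joined, and the third MES control library was taken from the EMT tables. The tables carry no replicate numbers, so a library's number is its place in the list of its group. PSI was computed from counts divided by form length. Events needed a mean of 20 reads per library and a read in every library. Each was fitted by a quasi-binomial model of state and knockdown, with dispersions moderated by limma 3.58.1 (R 4.3.3) along a robust trend, and Benjamini-Hochberg adjusted within its type. Because the count lists hold several libraries in a cell, they were parsed before the fit. The exact permutation test was two-sided and permuted knockdown within state.

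Gene values are summed skipped exon junction counts, scaled by the median of ratios and tested by limma with trend on log2(value + 1), for genes with at least 10 scaled reads in at least 2 libraries. They are not whole-gene counts, so genes without a skipped exon event are missing, and genes sharing reads or overlapping were not separated. A read shared by several events of a gene is counted in each of them. All adjusted p come from these fits, and n is 3 libraries a group, or 2 for MES KD. Intervals cover counting error only. Total junction reads per library limit precision as given per event. Sequences and exon annotation came from GRCh37 and its Gencode annotation. Scripts were written in Python 3.11.15 and R, and the tests of events and of genes were tried on simulated data.

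Named exons were the 25 genes with the largest mean change among called events, named genes the 10 largest rises and falls, plus members of the lists. A few of these are not reported here. Other exons were named after their values were seen. The members and lists were chosen with earlier results of these data known. Alternatives covered the error model, read and size thresholds, scaling, a block by place in the list, within-state p-values and leaving out each library. Libraries were not treated as paired, since not every same-placed pair deviated together.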

Additional observations from a re-analysis of the deposited data

Results flagged for a closer look

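The knockdown effect differed between the states by a test of the difference itself in 3 skipped exon events, 1 alternative 5′ splice site and 1 gene. The effect on the SNHG8 exon was 25.1 PSI points higher in MES than in EPI, at 2.0 against -23.1 (interaction adjusted p = 0.00213). An alternative 5′ site of the same gene gave a like difference of 24.4 points, at 3.45 against -21.0 (adjusted p = 4.26e-04), and its MES libraries overlapped. PCBP4, which encodes a poly(C)-binding protein, had an event with a difference of -55.2 points, at -31.5 in MES against 23.7 in EPI (adjusted p = 0.0145). Its PSI was 13.9%, 22.6% and 18.2% in EPI controls, 21.1%, 57.4% and 47.4% in EPI KD, 33.3%, 67.8% and 73.0% in MES controls and 40.6% and 12.5% in MES KD, on 82.1 reads per library, and the groups overlapped in both states. In ZFAS1, a snoRNA host gene, the exon differed by 10.6 points, at 4.88 against -5.68 (adjusted p = 0.0429). The summed junction reads of ZFAS1 differed as well, by 1.68 on the log2 scale. They were 3667, 3635 and 3106 in EPI controls and 2689, 3123 and 2355 in EPI KD, against 3173, 2992 and 3061 and 7856 and 7511 in MES (limma interaction adjusted p = 0.0199). No skipped exon event passed this test when EPI control library 1 was left out, and 7 did without EPI control library 3.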

How the results depend on the processing

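Without MES KD library 1, which leaves that group with 1 library whose spread is taken from the other groups, the called skipped exons dropped from 52 to 33 and the called genes from 110 to 63. Over all left-out libraries the ranges were 33 to 52 skipped exons, 1 to 5 mutually exclusive pairs, 0 to 7 alternative 3′ sites, 0 to 3 alternative 5′ sites, 0 to 7 skipped exons that differed between the states, and 63 to 145 genes, the most without EPI KD library 3. The share of events called in EPI with the same direction in MES ranged from 75.8% to 96.6%, and that of events called in MES from 70% to 100%. Leaving out any library gave 0 retained introns in the quasi-binomial test, with 30 to 64 at an unadjusted p under 0.05 and 10 points. Limma on the logit of PSI called 0 skipped exons, 2 mutually exclusive pairs and 0 alternative 5′ sites. A size of 5 points in place of 10 gave 80 skipped exons and 2 alternative 5′ sites. The larger of the within-state p-values gave 5 skipped exons, 0 mutually exclusive pairs, 0 alternative 5′ sites and 1 alternative 3′ site. A minimum of 10 reads gave 2 alternative 3′ sites. Of the settings chosen after seeing the data, a dispersion trend that is not robust gave 3 mutually exclusive pairs and 1 alternative 3′ site, and dispersions from the 4 groups gave 2 alternative 3′ sites. With selection at an unadjusted p under 0.01, 72.7% of 161 events chosen in MES moved the same way in EPI. Without a fold change threshold 536 genes were called. The cause of these shifts was not tested, apart from settings that change the threshold or the number of libraries. Place in the list is not known to pair libraries. Deviations of same-placed control and KD libraries correlated over genes at 0.28, 0.58 and 0.49 in EPI and 0.17 and 0.02 in MES, and over events at 0.02, 0.06 and 0.07 in EPI and 0.13 and 0.05 in MES. With place as a replicate block the fit called 50 skipped exons (49 shared with the 52), 5 mutually exclusive pairs, 2 retained introns, 5 alternative 3′ sites, 4 alternative 5′ sites and 113 genes. AKAP8 stayed between -1.29 and -1.10 on the log2 scale over the left-out libraries. None of the 52 called skipped exon events changed direction when a library was left out. The other alternatives leave the difference in PSI as it is, so they could not reverse a direction. The alternatives were not run on single events of other types or outside the 52.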

Other observations

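The MES KD group has 2 libraries, the AKAP8 shRNA of each library is not named in the labels, and only splicing events listed by rMATS were seen. Lowly read events such as those of FNBP1, SEPT2 and CD44 with 28.7, 30.9 and 33.9 reads per library carry standard errors of up to 8.91 points. Peaks and RNA-seq come from separate libraries, so nearness of a peak to an exon is a description.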
